A study of Mus musculus with 8 samples.

Results

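Imprinted genes are genes that are read mainly from the copy inherited from the mother or mainly from the copy inherited from the father. A set of 33 such genes, chosen by name from the well-known imprinted clusters of the mouse, was followed here in embryonic kidneys exposed to CHIR99021. The choice was made with earlier results of these data known. All 33 were found in the deposited table of 30890 genes, and 32 of them passed the filter on low counts (*Magel2* did not), as did 16723 genes in all. By their usual parent of origin, 20 are expressed from the paternal copy and 13 from the maternal copy. The reads were not separated by parental copy, so every value is the sum over both copies.

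Each group consisted of 4 C57BL/6 embryonic kidneys (E12.5) that had spent 72 h in organ culture, either in 5 μM CHIR99021 or in the vehicle DMSO at 0.1%, before their RNA was sequenced. CHIR99021 blocks the kinase GSK-3β, which otherwise tags β-catenin for destruction, and thereby turns on Wnt/β-catenin signaling. By the study's methods, the left kidney of an embryo received DMSO and the right kidney CHIR99021, and kidneys that lacked the usual response of Wnt target genes were left out. *Mest* and *Dlk1* are among the genes that the study names from these same samples, so their direction here is not independent evidence. By markers of a cell atlas, the study lists *Mest* under nephron progenitor cells and *Dlk1* under metanephric mesenchymal cells, both as lower.

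Imprinting is set in the germ line by DNA methylation at control regions, and it is kept in the embryo by the maintenance methyltransferase DNMT1 and by the zinc finger protein ZFP57 with its partner TRIM28. A control region often governs a cluster of neighbouring genes, in which a long non-coding RNA from one parental copy accompanies silent protein-coding genes on the same copy. Many imprinted genes act on growth before birth: *Igf2* encodes a growth factor of the fetus, *Igf2r* a receptor that removes it, *Cdkn1c* an inhibitor of the cell cycle, and *Grb10* an adaptor that dampens insulin and IGF signaling.

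After CHIR99021, 17 of the 32 tested imprinted genes fell, 4 rose and 11 did not pass by edgeR's quasi-likelihood test at an adjusted p under 0.05, while over all tested genes 25% fell, 23.7% rose and 48.7% passed in either direction. The median log2 fold change (CHIR99021 over DMSO) of the 32 genes was -0.29 and that of all tested genes was near 0. A log2 fold change under -1 was found in 6 of them (*Mest*, *Dlk1*, *Zim1*, *Rtl1*, *Peg3* and *Ascl2*), against 9.16% of all tested genes, and a rise over 1 in 0 of them, against 4.65% of all tested genes. Levels are given as CPM, with library sizes adjusted by TMM factors. The 4 DMSO and the 4 CHIR99021 values did not overlap in 17 of the 32 genes, 16 of them lower and 1 higher, and such a separation was seen in 46.1% of all tested genes (23.4% lower, 22.7% higher). In 19 of the 32 genes the treated kidney was lower than the control kidney of the same number in all 4 pairs, against 30.9% of all tested genes, and in 5 it was higher in all 4, against 30.2%.

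The falls were found on both parental sides. Of the 13 genes usually expressed from the maternal copy, 9 fell and 2 rose, with a median log2 fold change of -0.54. Of the 19 tested genes usually expressed from the paternal copy, 8 fell and 2 rose, with a median of -0.21. Over all tested genes, 25% fell and 23.7% rose. The difference between both sides was not tested. Summed over the 33 genes, the imprinted genes held 0.795 to 0.892% of all gene counts with DMSO and 0.496 to 0.562% with CHIR99021. *H19* and *Igf2* together made up 32.5 to 35.5% of these counts in the control kidneys and 46.7 to 49.5% in the treated kidneys.

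**Figure D1:**
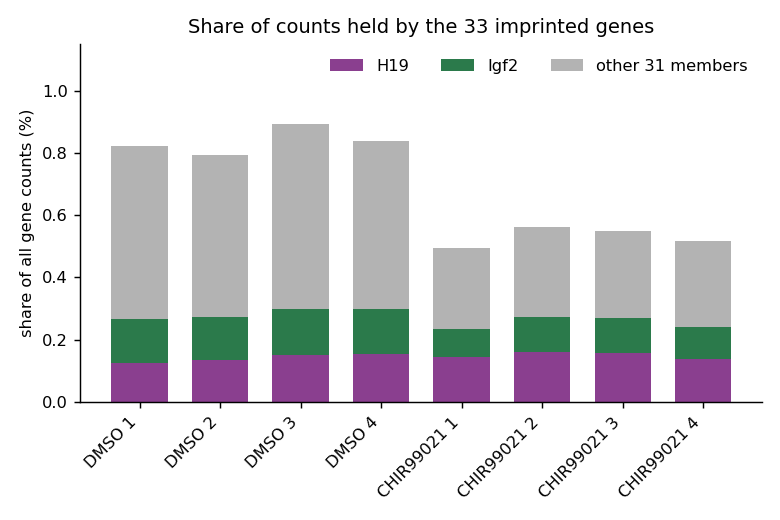
Share of all gene counts (%, vertical axis) held by H19, by Igf2 and by the other 31 imprinted genes in each kidney sample (bars, horizontal axis). The 4 DMSO bars reach 0.795 to 0.892% and the 4 CHIR99021 bars 0.496 to 0.562%, and most of the gap lies in the grey part.

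The gene counts summed to between 14599082 and 17751992 per sample. Marker genes of the cell types of the organ also moved with the treatment. All 10 nephron progenitor markers fell, from a summed level of 772 to 934 CPM to 174 to 192 CPM, and 8 of 10 markers of the ureteric epithelium fell, from 650 to 750 CPM to 309 to 333 CPM. All 7 endothelial markers fell (410 to 572 CPM against 158 to 218 CPM), as did all 8 macrophage markers (102 to 442 CPM against 8.87 to 45.5 CPM). Of 11 stromal markers, 3 rose (*Pdgfra*, *Col1a1* and *Col3a1*) and 4 fell (*Foxd1*, *Tcf21*, *Meis1* and *Ntn1*). Their sum went from 4015 to 5266 CPM to 7410 to 9036 CPM. Most of that rise lay in the collagen genes *Col1a1* (mean 1793 to 4524 CPM) and *Col3a1* (1719 to 2673 CPM). Proximal tubule markers fell in 4 of 5 tested genes (63.4 to 244 CPM against 18.1 to 52.0 CPM), and of 5 tested smooth muscle markers 2 rose and 1 fell (105 to 210 CPM against 238 to 345 CPM). The smooth muscle sum rose mainly with *Acta2* (mean 79.4 to 244 CPM), while *Des* fell (70.4 to 32.6 CPM). Podocyte and skeletal muscle markers were lower in sum (298 to 381 CPM against 171 to 222 CPM, and 11.4 to 21.4 CPM against 4.12 to 7.46 CPM). Of 6 cartilage and bone markers, 3 rose and 1 fell, with little change in sum (158 to 173 CPM against 158 to 184 CPM). *Runx2* (mean 21.6 to 64.3 CPM), *Sp7* (2.13 to 24.5 CPM) and *Ibsp* (0.093 to 2.53 CPM) rose, and *Sox9* fell (50.0 to 27.0 CPM). Neural and neural crest markers stood high in replicate 2 of both groups, at 72.9 CPM against 35.7 to 49.1 CPM in the other control samples and at 98.9 CPM against 15.5 to 22.5 CPM in the other treated samples. CHIR99021 replicate 2 is also the treated sample with the most counts of *Rtl1*, *Magel2* and *Klf14*, but likewise of other members such as *H19*, *Igf2*, *Mest* and *Peg3*. Without this sample 18 imprinted genes fell and 2 rose. Liver markers were high in DMSO replicates 2 and 4 (1269 and 901 CPM) against 7.50 and 57.2 CPM in the other control samples and 1.18 to 7.49 CPM in the treated samples. Without both of these control samples, 17 imprinted genes still fell and 3 rose. The part of these cell types in the changes below was not tested, and in whole organs fewer cells of a type and less RNA per cell cannot be told apart.

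**Figure D2:**
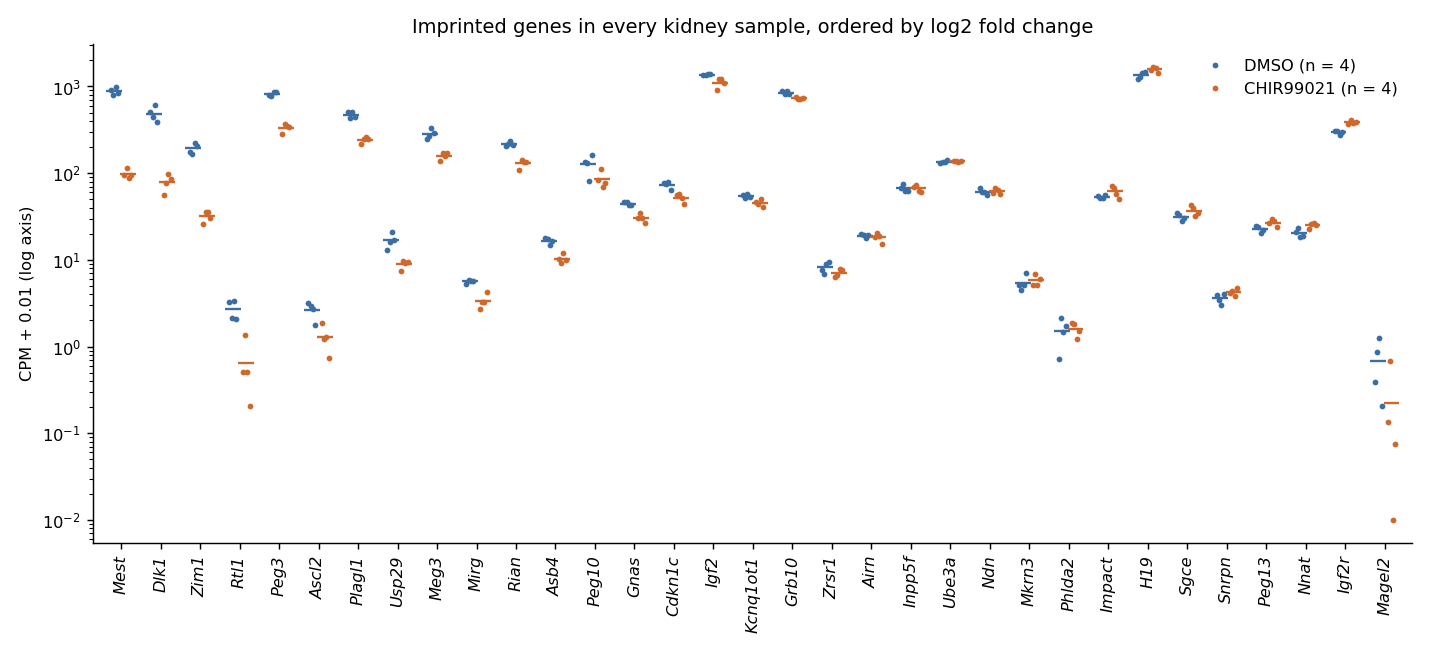
Level of each of the 33 imprinted genes in every kidney sample (points, CPM plus 0.01 on a log axis), with the group mean as a line and genes ordered from the lowest to the highest log2 fold change, untested Magel2 last. Mest lies at 804 to 974 CPM with DMSO and at 88.9 to 115 CPM with CHIR99021, while at the other end Igf2r lies at 278 to 309 and 369 to 406 CPM.

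*Mest*, which encodes a protein of the α/β-hydrolase family and is expressed from the paternal copy, had the largest fall of the set. It lies on chr6:30723547-30748465 (GRCm38, plus strand). Its level in DMSO replicates 1 to 4 was 919, 804, 974 and 851 CPM, and in CHIR99021 replicates 1 to 4 it was 94.9, 115, 88.9 and 94.3 CPM. Every treated sample was far below every control sample, and the treated mean was 11.1% of the control mean. The log2 fold change was -3.17 ± 0.090 (SE, n = 4 per group, adjusted p = 2.90e-10 in the quasi-likelihood test of edgeR), and it stayed between -3.25 and -3.12 when any single sample was left out. In deposited FPKM, which set reads against gene length, *Mest* ranked between 99 and 123 of all 30890 genes in the control kidneys and between 1705 and 2368 in the treated kidneys.

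The 250 bases before the main start of *Mest* in RefSeq (chr6:30737800-30738049, GRCm38.p6, plus strand) are shown because they hold the methylation-dependent recognition letters of ZFP57, TGCCGC, at 2 places, both on the minus strand and therefore read as GCGGCA (in capitals).
Mest promoter: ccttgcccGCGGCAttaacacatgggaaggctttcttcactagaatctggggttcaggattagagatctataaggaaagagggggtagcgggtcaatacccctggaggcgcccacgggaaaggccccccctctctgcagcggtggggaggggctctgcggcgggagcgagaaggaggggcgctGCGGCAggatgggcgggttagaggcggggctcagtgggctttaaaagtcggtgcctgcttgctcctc
The TCF/LEF core letters CTTTGA, searched on both strands, are not in this window.

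An intron of *Mest* holds the hairpin of miR-335, whose mature form carries the seed (bases 2 to 8) in capitals.
mmu-miR-335-5p: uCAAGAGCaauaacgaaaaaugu
The separate row of the hairpin gene *Mir335* went from 2.52 ± 0.32 to 0.167 ± 0.068 CPM (SD, n = 4), a log2 fold change of -3.86 ± 0.31 (SE, adjusted p = 6.80e-07). Reads over the hairpin cannot be told apart from unspliced *Mest* RNA, and the mature miRNA was not measured.

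Genes around *Mest* were lower as well. Apart from *Mir335*, 7 other tested genes start within 250 kb of it, and 6 of them fell, against 25% of all tested genes. *Tsga13*, a testis-specific gene, went from 5.71 ± 1.9 to 0.101 ± 0.087 CPM (SD, n = 4). *Klf14*, a maternally expressed transcription factor gene, had 376 counts over the 4 control samples and 7 over the 4 treated samples, all 7 in replicate 2. *Copg2*, which encodes a coat protein of transport vesicles, fell from 111 ± 8.2 to 75.1 ± 1.7 CPM. It overlaps the end of *Mest* on the opposite strand, and 23.1% of the exon bases of *Mest* are shared with it. The strand setting of the read counting is not given in the sources at hand, so that reads in this overlap cannot be assigned with certainty.

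The Dlk1-Meg3 cluster on chromosome 12 had 5 members in the set, and all 5 fell with no overlap between groups. Among all tested genes 25% fell, and 23.4% were lower with no overlap. *Dlk1*, the paternally expressed gene of a membrane protein that restrains Notch signaling and cell differentiation (chr12:109452823-109463336), was at 502, 440, 616 and 390 CPM in the control samples and at 56.2, 77.2, 98.3 and 86.6 CPM in the treated samples. Every control value was far above every treated value. Its log2 fold change was -2.61 ± 0.21 (SE, adjusted p = 4.64e-05).

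*Rtl1*, a paternally expressed retrotransposon-derived gene needed in the placenta, was low throughout. It had 60, 37, 57 and 32 counts in the control samples and 8, 20, 7 and 3 counts in the treated samples, so that its log2 fold change of -2.08 had a wide error (SE 0.41, adjusted p = 0.00125). Treated replicate 2 held 20 of its counts, more than the other 3 treated samples together, and without that sample the log2 fold change was -2.73 (adjusted p = 8.27e-05). In the fit of log2(FPKM + 1), a scale that shrinks low genes, it was -0.40 (adjusted p = 0.00159). The non-coding RNAs of the maternal copy fell less in size. *Meg3* was at 251, 268, 330 and 291 CPM with DMSO and at 138, 172, 159 and 170 CPM with CHIR99021, a log2 fold change of -0.83 ± 0.093 (SE, adjusted p = 3.37e-05). *Rian*, which hosts small nucleolar RNAs, went from 207 to 232 CPM to 109 to 142 CPM (log2 fold change -0.74 ± 0.075, SE). *Mirg*, which hosts a large group of miRNAs, went from 5.30 to 5.82 CPM to 2.68 to 4.21 CPM (log2 fold change -0.75 ± 0.16, SE). The 3 maternal RNAs thus stood at 56.1%, 59.9% and 59.3% of their control means, and *Dlk1* at 16.3%.

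The ratio of *Meg3* to *Dlk1* counts within a sample does not depend on scaling. It was 0.501 to 0.746 in the control kidneys and 1.61 to 2.46 in the treated kidneys, so that *Dlk1* had more counts than *Meg3* in every control sample and fewer in every treated sample. The mean log2 ratio went from -0.76 ± 0.25 to 1.03 ± 0.26 (SD, n = 4), a difference of 1.79 with an exact two-sided permutation p of 0.0286, which is the smallest that 70 splits of 8 samples can give. Ratios among the maternal RNAs moved far less: *Rian* over *Meg3* by 0.09 (exact p = 0.257) and *Mirg* over *Meg3* by 0.07 (exact p = 0.600).

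The starts of both genes are shown for comparison, as the 250 bases before each in RefSeq (GRCm38.p6, plus strand, chr12:109452573-109452822 for *Dlk1* and chr12:109540746-109540995 for *Meg3*). Capitals mark the ZFP57 letters, read as GCGGCA on the minus strand, and the TCF/LEF core, read as TCAAAG on the minus strand. Either occurs once before *Meg3* and not before *Dlk1*.
Dlk1 promoter: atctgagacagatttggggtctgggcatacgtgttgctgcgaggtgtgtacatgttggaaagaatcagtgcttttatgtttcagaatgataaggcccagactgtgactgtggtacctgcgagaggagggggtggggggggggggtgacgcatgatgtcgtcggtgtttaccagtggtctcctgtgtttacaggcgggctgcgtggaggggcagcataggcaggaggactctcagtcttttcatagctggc
Meg3 promoter: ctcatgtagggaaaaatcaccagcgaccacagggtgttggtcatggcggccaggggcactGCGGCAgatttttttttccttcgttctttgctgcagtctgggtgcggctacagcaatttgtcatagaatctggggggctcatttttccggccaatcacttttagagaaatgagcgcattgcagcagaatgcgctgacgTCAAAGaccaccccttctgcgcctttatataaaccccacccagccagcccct

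*Rtl1* lies opposite a group of miRNA hairpins read from the maternal copy. RefSeq places 11 mature miRNAs on the strand opposite to *Rtl1* within its bounds, and all 11 are complementary over their full length to the *Rtl1* transcript. A mature arm of each of 5 hairpins is shown with its seed in capitals, and the 11 miRNAs have 11 different seeds.
mmu-miR-431-5p: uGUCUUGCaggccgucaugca
mmu-miR-433-3p: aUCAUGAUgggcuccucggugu
mmu-miR-127-3p: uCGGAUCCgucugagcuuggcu
mmu-miR-434-3p: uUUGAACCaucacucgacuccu
mmu-miR-136-5p: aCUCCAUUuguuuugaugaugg
On the strand of their hosts, 3 mature miRNAs lie within *Meg3*, 6 within *Rian* and 26 within *Mirg*. Levels of mature miRNAs cannot be read from these libraries of long RNA. The log2 ratio of *Rtl1* to *Dlk1* moved by 0.34 with overlap between groups (exact p = 0.629), and it spread widely in the treated samples (SD 1.16 against 0.17 in the control samples).

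In the wider neighbourhood, 3 further listed imprinted genes passed, of which 2 fell and 1 rose. Among all tested genes 25% fell and 23.7% rose. *Begain*, which encodes a synaptic protein and starts 385 kb from *Dlk1*, fell from 16.9 ± 1.8 to 5.52 ± 0.72 CPM (SD, n = 4, log2 fold change -1.62, adjusted p = 4.09e-07). *Wars*, a tRNA synthetase gene farther out on the same side, fell slightly (log2 fold change -0.23, adjusted p = 0.0108). *Dio3*, whose enzyme inactivates thyroid hormone, lies 530 kb beyond *Mirg* at the other end of the domain. It rose from 0.703, 0.856, 0.527 and 0.654 CPM to 6.99, 5.62, 4.31 and 2.96 CPM, a log2 fold change of 2.84 ± 0.30 (SE, adjusted p = 5.70e-06). All treated values of *Dio3* were above all control values, the opposite of *Dlk1*, *Rtl1* and *Meg3*.

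**Figure D3:**
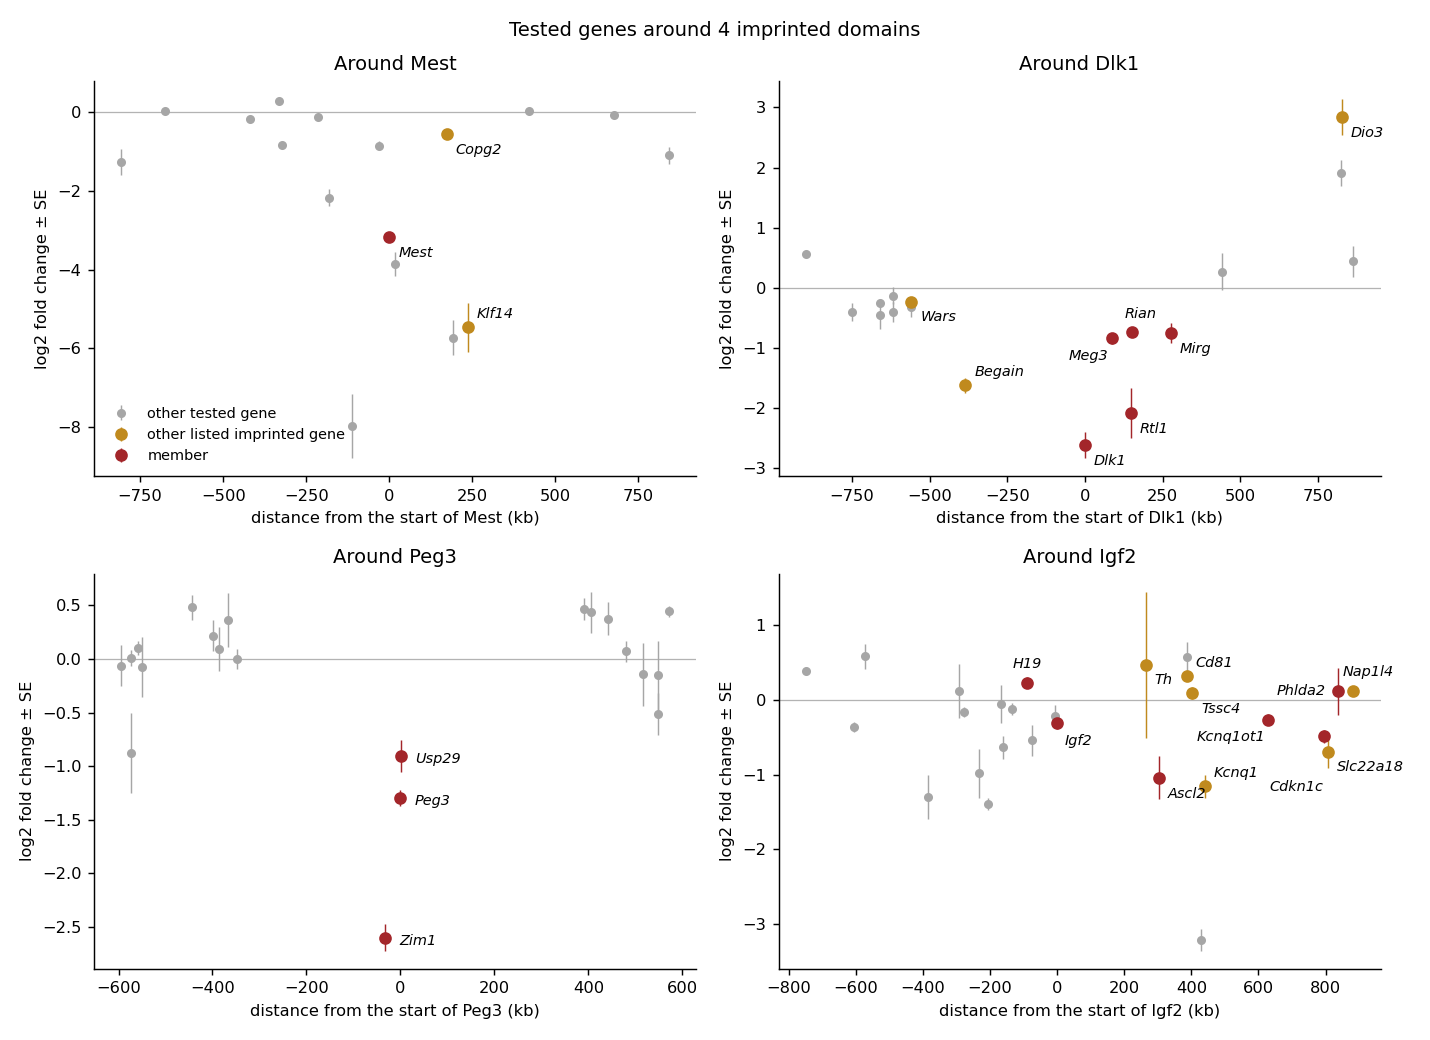
Log2 fold change (CHIR99021 over DMSO, with its SE) of every tested gene within 900 kb of Mest, Dlk1, Peg3 and Igf2, against the distance of its start from the start of that gene in kb. Around Mest most neighbours lie below 0, around Peg3 the 3 imprinted genes have the lowest values at -2.60, -1.30 and -0.91, the last close to a neighbour at -0.88 with a wide SE of 0.37, and Dio3 at 2.84 stands opposite to Dlk1 at -2.61.

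All 3 members of the Peg3 cluster on chromosome 7 fell, against 25% of all tested genes. *Peg3*, the paternally expressed gene of a zinc finger protein of growth and maternal care (chr7:6703892-6730431), was at 792, 778, 856 and 874 CPM in the control samples and at 282, 365, 351 and 343 CPM in the treated samples. The groups lay far apart, with a log2 fold change of -1.30 ± 0.076 (SE, adjusted p = 5.51e-08). *Zim1*, the maternally expressed zinc finger gene next to it (chr7:6671269-6696450), went from 175, 168, 224 and 206 CPM to 26.2, 35.5, 35.6 and 30.4 CPM. Its fall was as clear and larger, with a log2 fold change of -2.60 ± 0.12 (SE, adjusted p = 1.98e-07) and a treated mean of 16.5% of the control mean.

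*Usp29*, a paternally expressed gene of a deubiquitinase family, starts head to head with *Peg3*. It went from 12.9, 16.0, 21.0 and 17.1 CPM to 7.36, 9.64, 9.19 and 9.53 CPM (log2 fold change -0.91 ± 0.15, SE, adjusted p = 0.000232). The groups did not overlap, although the lowest control and the highest treated sample were close. The ratio of *Usp29* to *Peg3* rose by 0.41 on the log2 scale (from -5.64 ± 0.24 to -5.23 ± 0.044, SD, n = 4, exact p = 0.0286). The 4 treated and the 4 control values did not overlap, and 0.0286 is the smallest p that 70 splits can give. After adjustment over all ratios p was 0.0571, so the smaller fall of *Usp29* than of its neighbour did not pass. With so few splits, this is not a sign that both genes fell alike. On the opposite strand *Usp29* shares 14.3% of its exon bases with *Zim3*, which is not in the table analysed here.

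The 146 bases between the annotated starts of both genes (chr7:6730432-6730577, GRCm38.p6, shown in the direction of *Usp29*) hold neither set of motif letters.
Usp29 and Peg3 shared promoter: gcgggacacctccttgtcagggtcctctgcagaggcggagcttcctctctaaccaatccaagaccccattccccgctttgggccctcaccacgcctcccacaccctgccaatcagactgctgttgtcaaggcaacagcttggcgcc
Of the 4 other tested genes within 250 kb of the cluster, 0 fell and 1 rose, against 25% and 23.7% of all tested genes. The riser was *Zfp954*, a zinc finger gene (log2 fold change 0.46, adjusted p = 0.00246 by edgeR's quasi-likelihood test).

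*Plagl1*, a zinc finger transcription factor that is paternally expressed and linked to a network of imprinted genes, was at 508, 435, 514 and 443 CPM in the control samples and at 219, 247, 262 and 246 CPM in the treated samples. Its treated mean was 51.2% of the control mean, with no overlap (log2 fold change -0.96 ± 0.070, SE, adjusted p = 3.02e-07). Of its 4 tested neighbours, 1 rose and 1 fell, against 23.7% and 25% of all tested genes.

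The growth factor *Igf2* and the non-coding RNA *H19* share enhancers and are expressed from opposite copies. They were the most abundant members per length, with *H19* at 593 ± 55 FPKM and *Igf2* at 250 ± 6.0 FPKM in the control kidneys (SD, n = 4), which placed *H19* between ranks 22 and 29 and *Igf2* between ranks 96 and 102 of all genes. *Igf2* fell modestly, from 1360, 1341, 1394 and 1386 CPM to 914, 1207, 1205 and 1085 CPM (log2 fold change -0.31 ± 0.078, SE, adjusted p = 0.00513). All 4 treated samples were below all control samples, replicate 1 the most. *H19* was at 1209, 1285, 1423 and 1461 CPM in the control samples and at 1539, 1693, 1640 and 1427 CPM in the treated samples, with overlap. Its rise of 0.23 ± 0.072 (log2, SE, adjusted p = 0.0186) held in 3 of 4 pairs and turned to -0.13 (adjusted p = 0.238) in limma on log2(count + 1). The adjusted p of *H19* ranged from 0.00141 to 0.383 over the alternative fits. The call was lost when either of the first 2 control samples, or treated replicate 2 or 3, was left out (adjusted p of 0.0504 to 0.0576).

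The ratio between both genes did not depend on scaling. *H19* over *Igf2* was 0.889 to 1.05 with DMSO and 1.31 to 1.68 with CHIR99021. The mean log2 ratio went from -0.032 ± 0.11 to 0.52 ± 0.16 (SD, n = 4), a difference of 0.55 that was present in all 4 pairs (exact p = 0.0286). On the same strand, 62.8% of the exon bases of *Igf2* are shared with the gene model Gm49394, which has no row in the table analysed here. Of 9 tested neighbours of *H19* and *Igf2* within 250 kb, 4 fell and 0 rose, against 25% and 23.7% of all tested genes. The falls were led by *Lsp1*, a leukocyte gene (172 ± 13 to 65.8 ± 8.0 CPM, SD, n = 4).

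*Igf2r*, the maternally expressed receptor that carries IGF2 to the lysosome, was the member with the largest rise and the only riser with separated groups. It was at 306, 309, 278 and 295 CPM in the control samples and at 369, 406, 383 and 391 CPM in the treated samples (log2 fold change 0.38 ± 0.049, SE, adjusted p = 3.22e-05). Its antisense RNA *Airn*, which is read from the paternal copy and silences *Igf2r* there, was at 18.0 to 19.9 CPM and at 15.3 to 20.1 CPM and did not pass (log2 fold change -0.07, 95% interval -0.27 to 0.13, adjusted p = 0.570). The log2 ratio of *Airn* to *Igf2r* fell by 0.46 (exact p = 0.0286), with no overlap between groups.

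Other genes of IGF signaling, taken from a list of 16, were measured for context. Of 15 tested, 4 rose and 5 fell, against 23.7% and 25% of all tested genes. The receptors *Igf1r*, the main receptor of IGF ligands (310 ± 23 to 211 ± 12 CPM, SD, n = 4, adjusted p = 8.24e-06), and *Insr*, the insulin receptor (107 ± 7.0 to 89.7 ± 2.6 CPM, adjusted p = 0.00157), were both lower. Among the binding proteins that hold IGF outside the cell, *Igfbp2* rose from 125 ± 11 to 267 ± 47 CPM (adjusted p = 0.000139) and *Igfbp5* fell from 1823 ± 129.9 to 1184 ± 204 CPM (adjusted p = 0.00110). *Igfbp7*, a related secreted protein gene, rose from 155 ± 14 to 206 ± 25 CPM (adjusted p = 0.00351). *Irs1*, an adaptor below these receptors, rose from 19 ± 3.5 to 33.2 ± 3.0 CPM (adjusted p = 0.000160), all by edgeR's quasi-likelihood test over all genes.

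*Grb10*, the maternally expressed adaptor that dampens IGF signaling, was among the abundant members. It was at 881, 816, 884 and 818 CPM with DMSO and at 764, 723, 722 and 729 CPM with CHIR99021. The fall was small but the groups were apart, with a log2 fold change of -0.21 ± 0.048 (SE, adjusted p = 0.00299).

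In the Kcnq1ot1 cluster on chromosome 7, 3 of 4 members fell, against 25% of all tested genes, and *Phlda2* did not pass. *Cdkn1c*, the maternally expressed inhibitor of cyclin-dependent kinases (chr7:143458339-143461050), was at 76.0, 74.3, 79.8 and 63.9 CPM in the control samples and at 55.9, 57.5, 52.2 and 43.8 CPM in the treated samples. The groups did not overlap (log2 fold change -0.49 ± 0.090, SE, adjusted p = 0.000754). A gene model on the opposite strand, Gm44732, shares 30.7% of its exon bases. *Kcnq1ot1*, the paternal non-coding RNA that silences the cluster, went from 52.2 to 56.8 CPM to 40.8 to 50.5 CPM, again with no overlap. Its log2 fold change was -0.27 ± 0.069 (SE, adjusted p = 0.00625). The log2 ratio of *Kcnq1ot1* to *Cdkn1c* moved by 0.22 with overlap (exact p = 0.0857).

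*Ascl2*, a maternally expressed transcription factor gene of the trophoblast and of intestinal stem cells, was low. It had 58, 51, 46 and 27 counts in the control samples and 30, 18, 18 and 11 in the treated samples. The ranges overlapped in CPM, since control replicate 4 was below treated replicate 1, although each treated sample was below the control of its own number (log2 fold change -1.04 ± 0.29, SE, adjusted p = 0.00940). The call was lost in limma on log2(count + 1), at an adjusted p of 0.0616, the highest over the alternative fits, among which the lowest was 0.00212. *Phlda2*, a maternally expressed brake on placental growth, had 13 to 37 and 17 to 30 counts, and its 95% interval of -0.57 to 0.79 leaves room for a change in either direction.

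Of 12 tested neighbours of this cluster, 6 rose and 3 fell, against 23.7% and 25% of all tested genes. *Trpm5*, a channel of taste cells, fell from 20.9 ± 1.8 to 2.26 ± 0.49 CPM, *Kcnq1*, the potassium channel gene within which *Kcnq1ot1* lies, from 9.81 ± 1.7 to 4.39 ± 0.53 CPM, and *Tnfrsf22*, a decoy receptor gene, rose from 30.6 ± 2.2 to 63.6 ± 2.4 CPM (SD, n = 4). The direction thus changed from gene to gene within the domain.

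The proximal chromosome 6 cluster held 3 members. *Asb4*, maternally expressed and part of a ubiquitin ligase, was at 17.9, 17.6, 14.8 and 16.5 CPM with DMSO and at 10.2, 9.30, 12.1 and 9.86 CPM with CHIR99021. It fell with no overlap (log2 fold change -0.69 ± 0.11, SE, adjusted p = 0.000179). *Peg10*, a paternally expressed retrotransposon-derived gene of the placenta, spread widely, at 134, 129, 82.0 and 161 CPM and at 83.2, 110, 69.9 and 76.6 CPM. Its treated sample was lower in each pair, but the log2 fold change of -0.57 ± 0.23 (SE) did not pass by edgeR's quasi-likelihood test (adjusted p = 0.0832). With the replicate block it was -0.56 and passed at an adjusted p of 0.0400, within a range of 0.0202 to 0.361 over the alternative fits.

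*Sgce*, which encodes ε-sarcoglycan and starts back to back with *Peg10*, was at 34.8, 33.1, 27.8 and 30.6 CPM and at 42.7, 39.2, 31.9 and 34.4 CPM. It was higher in each pair, with a log2 fold change of 0.23 ± 0.098 (SE) that did not pass (adjusted p = 0.0696). With the replicate block it passed at an adjusted p of 0.00884, within a range of 0.00884 to 0.506 over the alternative fits. The log2 ratio of *Sgce* to *Peg10* was higher in every treated sample, by 0.78 on average (exact p = 0.0286).

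Of 9 tested neighbours of this cluster, 6 rose and 2 fell, against 23.7% and 25% of all tested genes. *Col1a2*, a fibrillar collagen gene of stroma, went from 1154 ± 184 to 2527 ± 188 CPM (SD, n = 4).

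*Gnas*, the gene of the stimulatory G protein α subunit, which is maternally expressed in some tissues and from both copies in others, was at 46.2, 46.4, 42.6 and 43.1 CPM in the control samples and at 30.0, 35.0, 30.6 and 26.8 CPM in the treated samples. It fell with no overlap (log2 fold change -0.54 ± 0.078, SE, adjusted p = 8.76e-05). Its row covers chr2:174284320-174346744, where RefSeq places separate starts, the first at 174284320 and the last at 174330006. Transcripts from these starts are summed in the row, so the fall cannot be assigned to any of them. Transcripts on the opposite strand share part of its exon bases, 13.1% with Gm20721 and 8.83% with *Nespas*.

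*Nnat*, a paternally expressed proteolipid gene best known from the brain, was at 21.0, 23.0, 18.4 and 18.7 CPM and at 22.7, 26.2, 26.8 and 25.4 CPM. It rose in each pair although the ranges met (log2 fold change 0.32 ± 0.090, SE, adjusted p = 0.0105). The alternative fits gave adjusted p of 0.00321 to 0.113, with the call lost in those of FPKM. *Peg13*, a paternal non-coding RNA within *Trappc9*, was at 24.7, 23.9, 20.2 and 22.1 CPM and at 26.3, 30.0, 27.7 and 23.7 CPM (log2 fold change 0.24 ± 0.090, SE, adjusted p = 0.0400). This call was lost in 6 of 8 fits that left out a single sample, where its adjusted p ranged from 0.0154 to 0.116.

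No member of the Prader-Willi/Angelman region of chromosome 7 passed the test. *Ube3a*, the ubiquitin ligase gene that is imprinted in neurons, was nearly level, at 131 to 140 CPM and 134 to 138 CPM, with a 95% interval of the log2 fold change of -0.07 to 0.11. *Ndn*, a MAGE family gene, was at 55.3 to 67.7 and 58.0 to 67.8 CPM (interval -0.13 to 0.18). *Snrpn*, which encodes a splicing protein, was at 2.99 to 4.06 and 3.80 to 4.67 CPM (interval -0.12 to 0.60), and *Mkrn3*, a ring finger gene, at 4.45 to 7.00 and 5.10 to 6.89 CPM (interval -0.28 to 0.47). All 4 intervals held 0, and those of *Snrpn* and *Mkrn3*, with fewer counts, were wider. *Snrpn* shares 27.3% of its exon bases with Gm38393 on its own strand, and *Ube3a* 27.3% with transcripts of the opposite strand. Of 7 tested neighbours within 250 kb, 1 rose and 1 fell, against 23.7% and 25% of all tested genes. The riser was Gm38393, better counted than *Snrpn*, at 14.8 ± 0.73 and 18.0 ± 2.6 CPM (SD, n = 4). Its log2 fold change was 0.28 (adjusted p = 0.0475 by edgeR's quasi-likelihood test). *Magel2*, the MAGE gene next to *Ndn*, was below the filter with 7, 15, 21 and 3 counts in the control samples and 2, 10, 0 and 1 in the treated samples, and its ratio to *Ndn* overlapped between groups (exact p = 0.114).

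The remaining paternally expressed members did not pass either. *Impact*, a regulator of the translation kinase GCN2, was at 51.7 to 56.4 and 49.8 to 71.7 CPM (adjusted p = 0.112). *Inpp5f*, a phosphoinositide phosphatase gene, was at 62.7 to 74.2 and 61.3 to 73.6 CPM (adjusted p = 0.952). *Zrsr1*, a splicing factor gene within *Commd1*, was at 6.85 to 9.49 and 6.37 to 7.75 CPM (adjusted p = 0.242).

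**Figure D4:**
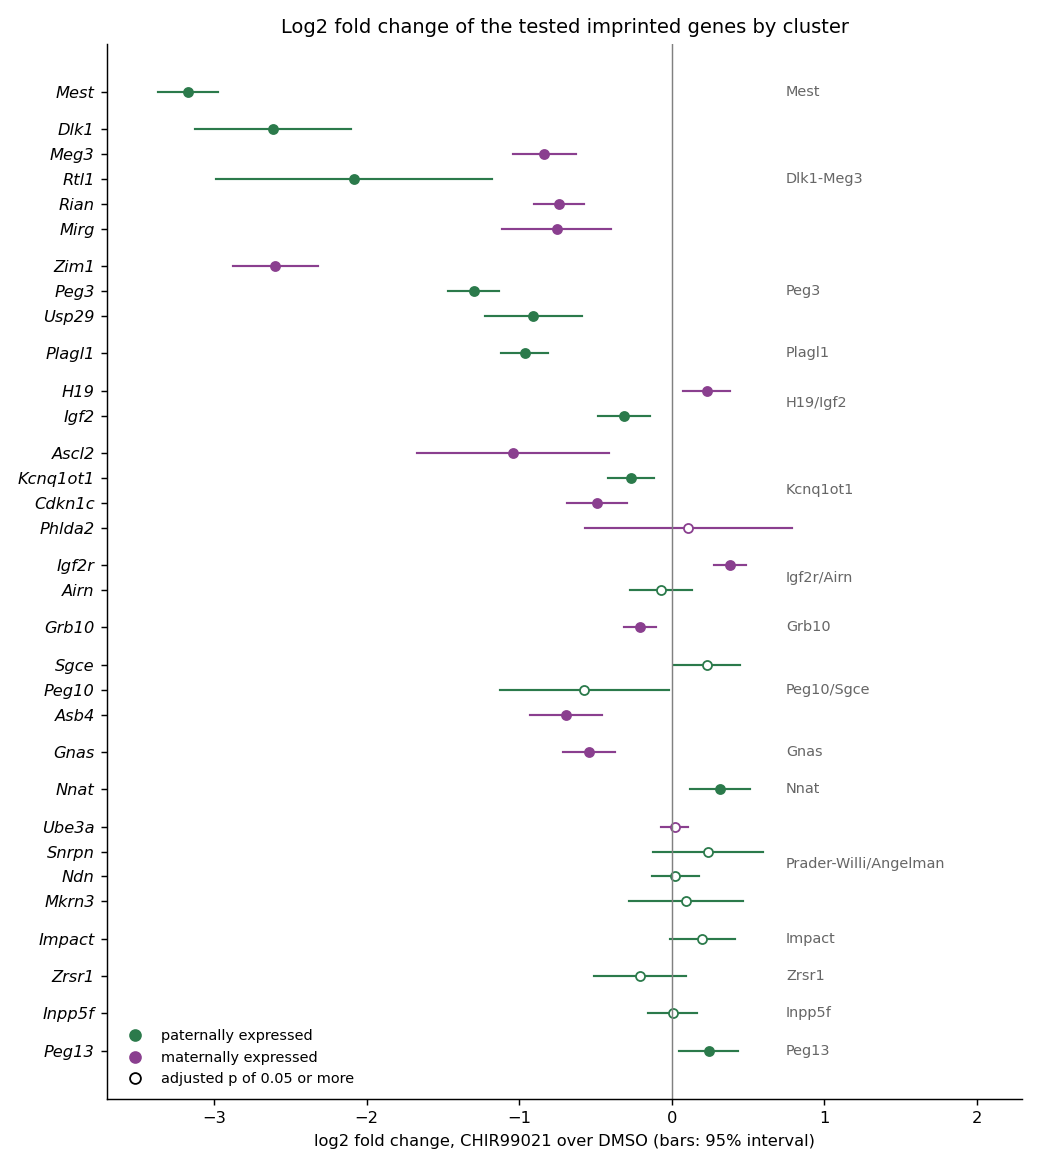
Log2 fold change (CHIR99021 over DMSO, horizontal axis) of the 32 tested imprinted genes with its 95% interval, grouped by cluster and coloured by the parental copy that is usually expressed, with open circles for an adjusted p of 0.05 or more. The Dlk1-Meg3 and Peg3 clusters lie wholly below 0, the Prader-Willi/Angelman members span 0, and Igf2r at 0.38 is the highest.

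In all, 10 ratios between partners of a cluster were compared. In 5 of them the 4 treated and the 4 control values did not overlap and the exact permutation p was 0.0286. After Benjamini-Hochberg adjustment over the 10 ratios these 5 had an adjusted p of 0.0571, so that 0 passed. Their exact p was already the smallest possible, so the lack of a pass is not a sign of unchanged ratios. An exact test over the 4 pairs cannot go below 0.125.

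**Figure D5:**
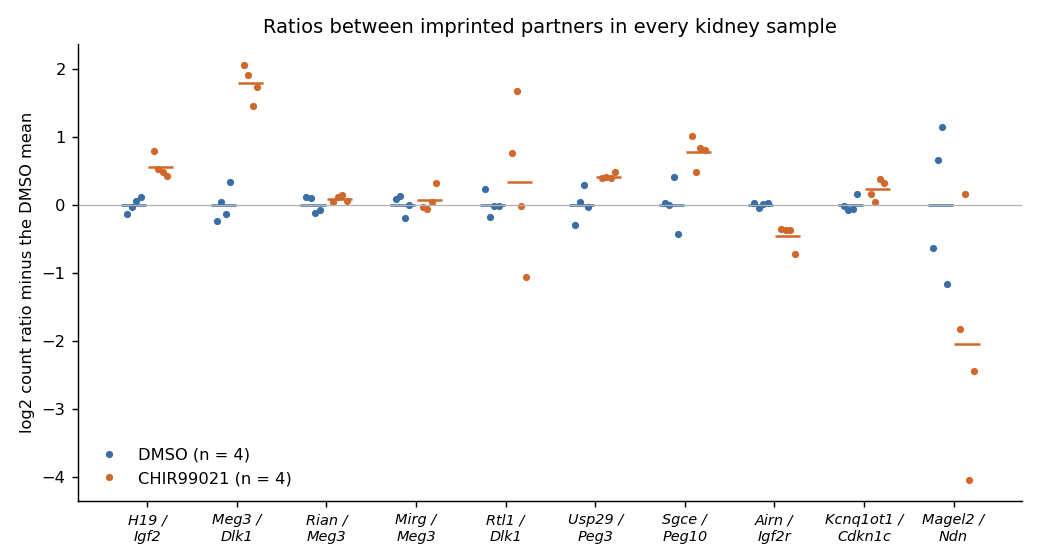
Log2 ratio of counts between partner genes within each kidney sample, drawn as the difference from the mean of the 4 DMSO samples, with points for samples and lines for group means. Meg3 over Dlk1 lies 1.79 higher on average in the treated samples and Airn over Igf2r 0.46 lower, while Rian and Mirg over Meg3 lie within 0.09 of the control mean on average.

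Imprinted genes outside the set moved both ways. Of 59 further listed genes, 54 were in the table and 44 were tested. Of these 44, 14 rose and 14 fell, against 23.7% and 25% of all tested genes. Their median log2 fold change was 0.03. Those within 1000 kb of a member counted 29, with 10 higher and 9 lower. Besides *Dio3*, the clearest rises were in *Tfpi2*, a protease inhibitor gene (3.39 ± 1.4 to 22.2 ± 3.5 CPM, SD, n = 4, adjusted p = 6.17e-06), and *Qpct*, a glutaminyl cyclase gene (2.21 ± 0.18 to 7.39 ± 1.2 CPM, adjusted p = 2.65e-06). Besides *Begain*, the smallest p among the falls were those of *Zdbf2*, a paternally expressed zinc finger gene (35.0 ± 1.7 to 15.3 ± 2.4 CPM, adjusted p = 7.35e-07), and *Jade1*, a chromatin and ubiquitin ligase gene (66.6 ± 4.3 to 37.5 ± 3.6 CPM, adjusted p = 2.00e-06). *Cobl*, an actin nucleator gene 426 kb from *Grb10*, fell from 32.0 ± 4.2 to 16.0 ± 1.1 CPM (adjusted p = 3.78e-06), all by edgeR's quasi-likelihood test.

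Of 27 tested genes of a list of 31 for imprint maintenance and DNA methylation, 11 fell and 3 rose. Over all tested genes, 25% fell and 23.7% rose. *Dnmt1*, *Uhrf1* and *Trim28* are named here for their known roles, and were chosen after their values were seen. *Dnmt1* fell from 225 ± 12 to 180.4 ± 12 CPM (SD, n = 4, adjusted p = 0.000433), and *Uhrf1*, which guides DNMT1 to copied DNA, from 142 ± 7.4 to 105 ± 14 CPM (adjusted p = 0.00122). The oxidases of methylated DNA *Tet2* (log2 fold change -0.54 ± 0.054, SE) and *Tet3* (-0.40 ± 0.061, SE) were lower too, as were *Hells*, a remodeler for DNA methylation, *Cbx5*, a heterochromatin protein gene, and *Arid4a*, a chromatin factor gene (53.5 ± 3.8 to 41.9 ± 0.95 CPM, adjusted p = 0.000415). In contrast *Zfp57* rose in every treated sample, from 59.6, 57.2, 63.4 and 65.8 CPM to 106, 85.7, 102 and 95.6 CPM (log2 fold change 0.66 ± 0.070, SE, adjusted p = 6.68e-06), and its partner *Trim28* went from 408 ± 16 to 450 ± 3.3 CPM (adjusted p = 0.0171). DNA methylation was not measured.

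Promoter sequence was read for 26 of the 33 members, which had 40 annotated promoters of 300 bases in RefSeq (GRCm38.p6), some of them overlapping. The TCF/LEF core CTTTGA was found on either strand in 2 of the 40, or 5%, against 16.0% of 32851 mouse promoters. The ZFP57 letters TGCCGC were found in 9 of them, or 22.5%, against 11.6% of all, and the members' promoters held a median of 13 CpG against 7. These are counts of letters and say nothing about binding.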

How the data were processed

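RNA of 8 cultured embryonic kidneys was analysed, 4 with DMSO and 4 with CHIR99021, grouped by the titles of the samples. By the study's methods and the submitters' processing notes, the authors filtered the reads, used HISAT2 2.0.5 for alignment on GRCm38, and summed reads by gene. The deposited counts are unscaled whole numbers. The deposited FPKM values were made by the authors per gene length and library, and served here for ranks between genes and for alternatives. The authors also deposited their own comparison (a mean signal, a fold ratio, its log2 value and p-values), which was not used. For RNA extraction and library preparation the labels and the paper name different kits.

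The members and gene lists were chosen with earlier results of these data known. The text names every member, the 6 smallest p of each list, further listed genes near a member, and at most 3 neighbours per cluster with the smallest p, apart from 3 genes said to be picked later. Marker lists whose sums moved with the treatment or stood apart in a sample are given by their sums. Cartilage and bone is also given, since its genes moved both ways. Genes were kept by edgeR's filterByExpr (minimum count 10, minimum total 15), which left 16723 of 30890. Counts were scaled by TMM (factors 1.04 to 1.06 with DMSO and 0.948 to 0.963 with CHIR99021) and compared by edgeR 4.0.16 (glmQLFit with robust dispersions and glmQLFTest, group as the only term, R 4.3.3), with Benjamini-Hochberg adjustment over all tested genes. The SE of a log2 fold change is its size divided by the root of the F statistic. Ratios between partners used counts plus 0.5 and an exact permutation test over 70 splits.

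The study pairs the kidneys of an embryo, and both groups carry the same replicate numbers. With group means removed, the correlation over genes was 0.140 to 0.357 between equal numbers and -0.221 to 0.0765 between unequal ones, and 8 of 8 samples were closest to their own number, so the numbers were taken as pairs. The block was tried as an alternative, beside RLE and upper-quartile scaling, DESeq2 1.42.0, limma 3.58.1 (voom, log2(FPKM + 1), log2(FPKM + 0.1) and log2(count + 1)), other filters and each sample left out. Leaving out DMSO replicates 2 and 4 was chosen after seeing the data. Gene models for overlaps came from GENCODE, and 29 of the 33 deposited positions equal them. Promoters and miRNAs came from RefSeq. The procedure was tested on simulated data. The replicates' litters are not given in the sources used here, so p-values measure the spread between these samples.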

Additional observations from a re-analysis of the deposited data

Results flagged for a closer look

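Of 86 sets of 4 samples tested for a single sample far from the other 3 (Dixon's test at 95%), 4 stood out, and chance gives about 1 in 20. *Mirg* was at 5.30 CPM in DMSO replicate 1 against 5.74 to 5.82 CPM in the other control samples, still above all treated samples. *Grb10* was at 764 CPM in CHIR99021 replicate 1 against 722 to 729 CPM in the other treated samples, still below all control samples. The log2 ratio of *Airn* to *Igf2r* was -4.01 in DMSO replicate 2 against -3.95 to -3.94 in the other control samples. In CHIR99021 replicate 4 the same ratio was -4.68 against -4.34 to -4.32 in the other treated samples.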

How the results depend on the processing

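Of 608 comparisons of a member under an alternative, 572 kept the side of the threshold, 21 lost the call and 14 gained it. Among the 572 the sign could change where neither fit passed, as for *Ndn*, *Ube3a* and *Inpp5f* with upper-quartile scaling (log2 fold changes of -0.022, -0.027 and -0.041). In 1 comparison a member with a call changed its direction, *H19* at -0.13 in limma on log2(count + 1) (adjusted p = 0.238). The cause was not tested. The calls lost were those of *H19*, *Peg13*, *Nnat* and *Ascl2*, and those gained were those of *Peg10*, *Sgce*, *Zrsr1*, *Snrpn* and *Impact*. The number of members that rose was 2 with upper-quartile scaling, and 1 with log2(FPKM + 1) and with log2(FPKM + 0.1), against 4. The number of all genes that rose was 2520 and 2437 in these FPKM fits, against 3958, so that 29.5% and 29.2% of all calls were higher, against 48.6% by TMM and 41.5% with upper-quartile scaling. The median of all genes was -0.13 in the fit of log2(FPKM + 0.1), and relative to it the fall of *Igf2* and the rise of *Igf2r* were still present.

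With a single sample left out, 2 to 5 members rose and 17 to 18 fell, 5 to 7 of them past a log2 fold change of -1. The count that rose was 2 without DMSO replicate 2 or CHIR99021 replicate 2. With the replicate block (pairing), 5 members rose and 18 fell, as *Sgce* and *Peg10* passed, and 4096 and 4376 of all genes rose and fell. It changed no other call of a member. Of the 10 partner ratios, 0 passed adjustment in any alternative, with a smallest exact p of 0.125 over pairs and of 0.0286 with a sample left out. Both are the smallest p that these tests can give, so the lack of a pass says little about a change. Low counts limit *Magel2*, *Phlda2*, *Rtl1* and *Ascl2*.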

Other observations

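Clusters differed in how their other genes moved. Over all members, 93 further genes (*Mir335* included) were tested within 250 kb, of which 23 rose and 23 fell with a median log2 fold change of 0.05, against 23.7% and 25% of all tested genes. Around *Inpp5f*, 3 of 6 rose, led by *Sec23ip*, a gene of vesicle transport (83.5 ± 3.8 to 108 ± 4.0 CPM, SD, n = 4). Around *Grb10*, 2 of 4 fell, among them *Ikzf1*, a lymphoid transcription factor gene (3.68 ± 1.6 to 0.416 ± 0.081 CPM). Around *Gnas*, *Npepl1*, an aminopeptidase gene, fell from 37.8 ± 1.5 to 22.7 ± 0.16 CPM while *Ctsz*, a cathepsin gene, rose from 97.7 ± 8.5 to 122 ± 8.1 CPM. Around *Nnat*, 0 of 6 tested genes passed edgeR's quasi-likelihood test.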
